A study of Mus musculus with 8 samples.

Results

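Matrix metalloproteinases (MMPs) and tissue inhibitors of metalloproteinases (TIMPs) were followed in cultured mouse astrocytes. The 10 members were taken by gene symbol from the 54146 genes of the deposited tables. They are 7 MMPs (Mmp2, Mmp3, Mmp9, Mmp10, Mmp13, Mmp14 and Mmp15) and 3 TIMPs (Timp2, Timp3 and Timp4). All 10 were found in each of the 8 libraries.

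RNA-seq was performed on primary cortical astrocytes from C57BL/6 pups at postnatal day 2 to 5, with 2 biological replicates in each of 4 groups. Astrocytes carried a lentiviral shRNA against Gstm1, a glutathione S-transferase (GSTM1 KD), or a non-silencing shRNA (control KD). Each was left unstimulated (basal level) or given TNF-α, a pro-inflammatory cytokine, at 50 ng/ml for 6 h. The comparisons address how reduced GSTM1 alters astrocyte gene expression in each state. All cultures, the controls included, were transduced, selected with puromycin and depleted of CD11b+ cells. The sources used here do not state how many Gstm1 shRNA sequences were used, nor whether a replicate number marks a shared preparation.

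MMPs are zinc-dependent proteases that cut extracellular matrix and cell surface proteins. They are made as inactive precursors that other proteases convert to the active form, and TIMPs block the active form by binding at the catalytic site. In brain, astrocytes are among the cells that make both, and the system is known for its part in opening the blood-brain barrier during inflammation.

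The summed expected counts per library ran from 17349676 to 34434633. Gstm1 itself had 8153 and 9644 counts in unstimulated control KD against 676 and 626 in unstimulated GSTM1 KD, and 4851 and 6492 against 527 and 405 after TNF-α. Its log2 fold change was -3.33 ± 0.259 (SE, n = 2 per group, edgeR adjusted p = 0.0132) and -3.68 ± 0.314 (adjusted p = 0.00971), so the target was lower in every library labelled as knocked down. All 12 astrocyte markers were over 3 counts in every library, and their summed TPM (the deposited level, scaled for transcript length and library total) was 1986 and 4817 in the 2 control KD basal libraries and 4772 and 7378 in GSTM1 KD. Control KD replicate 1 was the low library in both states, at 1986 and 1932. The 8 mural markers summed to 7139 to 8268 TPM in unstimulated control KD and 3509 to 4483 TPM in unstimulated GSTM1 KD, nearly all of it from Acta2 and Tagln, and the mural genes Kcnj8, Abcc9 and Myh11 were under 1 TPM throughout. The 10 fibroblast markers summed to 5352 to 5396 TPM against 4126 to 4655 TPM, mostly Igfbp2, with Lum under 1 TPM and Slc6a13 at 0. Of 12 microglia markers, 6 including Cx3cr1, P2ry12 and Itgam stayed under 1 TPM in all libraries. Among the tested markers, 2 of 6 mural, 1 of 8 fibroblast and 1 of 12 astrocyte genes passed as lower in unstimulated GSTM1 KD. So did 1 of 4 oligodendrocyte precursor genes and 1 of 4 endothelial genes, where 5.62% of all genes did. The endothelial gene Esam entered the test through control KD alone, where it was high (99 and 61 counts against 8 and 8). As higher, 1 of 4 oligodendrocyte genes and 1 of 2 choroid plexus genes passed, where 4.6% did. Cldn11, of the oligodendrocyte list, had 2 and 2 counts in control KD against 11 and 19 in GSTM1 KD. Folr1, of the choroid plexus list, had 17 and 4 against 36 and 55. Both entered the test through GSTM1 KD, where they were high, so calls of such genes describe their counts only. After TNF-α, 2 of 6 mural, 2 of 4 oligodendrocyte precursor and 1 of 4 endothelial genes passed as lower, where 8.92% of genes did. So did 1 of 8 fibroblast and 1 of 12 astrocyte genes. As higher, 1 of 6 mural, 1 of 2 choroid plexus and 1 of 5 ependymal genes passed, where 7.26% did. Esam and Folr1 again entered the test through the group where each was high. In unstimulated GSTM1 KD, the summed TPM of 6 oligodendrocyte precursor markers (531 to 594 against 421 to 440) was also lower. So was that of 8 endothelial markers (8.27 to 9.83 against 3.67 to 4.51). The sum of 6 choroid plexus markers was higher there (2.64 to 3.08 against 6.59 to 10.91). That of 8 neuron markers was higher as well (293 to 298 against 326 to 374). Nearly all of it came from Map2, Stmn2 and Tubb3, while Rbfox3, Snap25, Syt1 and Slc17a7 stayed under 1 TPM in all libraries. The precursor sum was mostly Olig1 and Olig2, with Sox10 and Gpr17 under 1 TPM and Cspg4 higher in unstimulated GSTM1 KD. The higher choroid plexus sum was mostly Folr1, with Ttr, Kl and Clic6 under 1 TPM. In the endothelial list, Pecam1, Cldn5, Kdr, Tek and Emcn were under 1 TPM. The precursor, endothelial, choroid plexus, neuron, mural and fibroblast sums separated the groups in both states. The ependymal sums (84.2 to 110 against 135 to 147 TPM) did so only after TNF-α, and the astrocyte sums overlapped narrowly. The part of these lists in the results was not tested. In bulk cultures, fewer cells of one type and less RNA per cell cannot be told apart.

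Of the members, 3 lie close together. Mmp13 (chr9:7272514-7283331), Mmp3 (chr9:7445822-7455975) and Mmp10 (chr9:7502352-7510240), all on the plus strand of GRCm38, belong to a cluster of 10 MMP genes that spans 0.427 Mb. Their promoters are shown because these 3 members share sequence words there that the other 5 members with a promoter lack. RefSeq (GRCm38.p6) gave a promoter for 8 of the 10 members, all but Mmp2 and Mmp9. Each line below gives the 150 bases before the RefSeq start, 5′ to 3′, at chr9:7272364-7272513 (Mmp13), chr9:7445672-7445821 (Mmp3) and chr9:7502192-7502341 (Mmp10), plus strand. Capitals mark TGANTCA, the word bound by AP-1 (Fos and Jun dimers), and TATAAA, the core promoter box near many gene starts.
Mmp13: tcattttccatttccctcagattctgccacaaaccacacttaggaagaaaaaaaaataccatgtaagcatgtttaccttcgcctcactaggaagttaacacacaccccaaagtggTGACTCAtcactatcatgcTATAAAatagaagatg
Mmp3: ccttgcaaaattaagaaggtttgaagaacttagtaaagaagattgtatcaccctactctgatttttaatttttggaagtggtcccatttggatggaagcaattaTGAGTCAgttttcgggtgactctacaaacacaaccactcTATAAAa
Mmp10: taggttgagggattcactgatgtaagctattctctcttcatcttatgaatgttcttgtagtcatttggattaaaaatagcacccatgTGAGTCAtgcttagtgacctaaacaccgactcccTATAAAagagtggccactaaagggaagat
Both words were sought on both strands from 250 bases before to 50 after the start, and they do not overlap each other. TGANTCA began 35 bases before the start in Mmp13, 46 in Mmp3 and 63 in Mmp10, and TATAAA began 16, 7 and 29 bases before it. Among all 32851 RefSeq promoter windows of this length, 7.81% held TGANTCA and 13.6% held TATAAA. Neither word was found in the windows of Mmp14, Mmp15, Timp2, Timp3 or Timp4. The NF-κB consensus word was in 0 of the 8 windows, against 8.46% of all windows. A match describes these letters only and shows no binding.

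The other members lie apart from the cluster. Mmp2 (chr8:92827291-92853420) and Mmp15 (chr8:95352268-95375080) are on chromosome 8, Mmp9 (chr2:164940780-164955850) on chromosome 2 and Mmp14 (chr14:54431612-54445364) on chromosome 14. Timp2 (chr11:118301069-118355740) and Timp4 (chr6:115241892-115252205) are on minus strands, and Timp3 (chr10:86300372-86349506) is on a plus strand. Timp3 lies within the synapsin gene Syn3 and Timp4 within Syn2, each on the opposite strand with overlapping exons. The sources used here do not say whether strand was used in counting. RSEM leaves fractions where it divides a read between genes. The deposited expected counts were whole numbers (to 2 decimals) in all 8 libraries for Timp4, Syn2 and every member but Timp3. Those of Timp3 and Syn3 held fractions in all 8, and their sum was whole in all 8, with at most 267.89 counts given to Syn3.

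**Figure D1:**
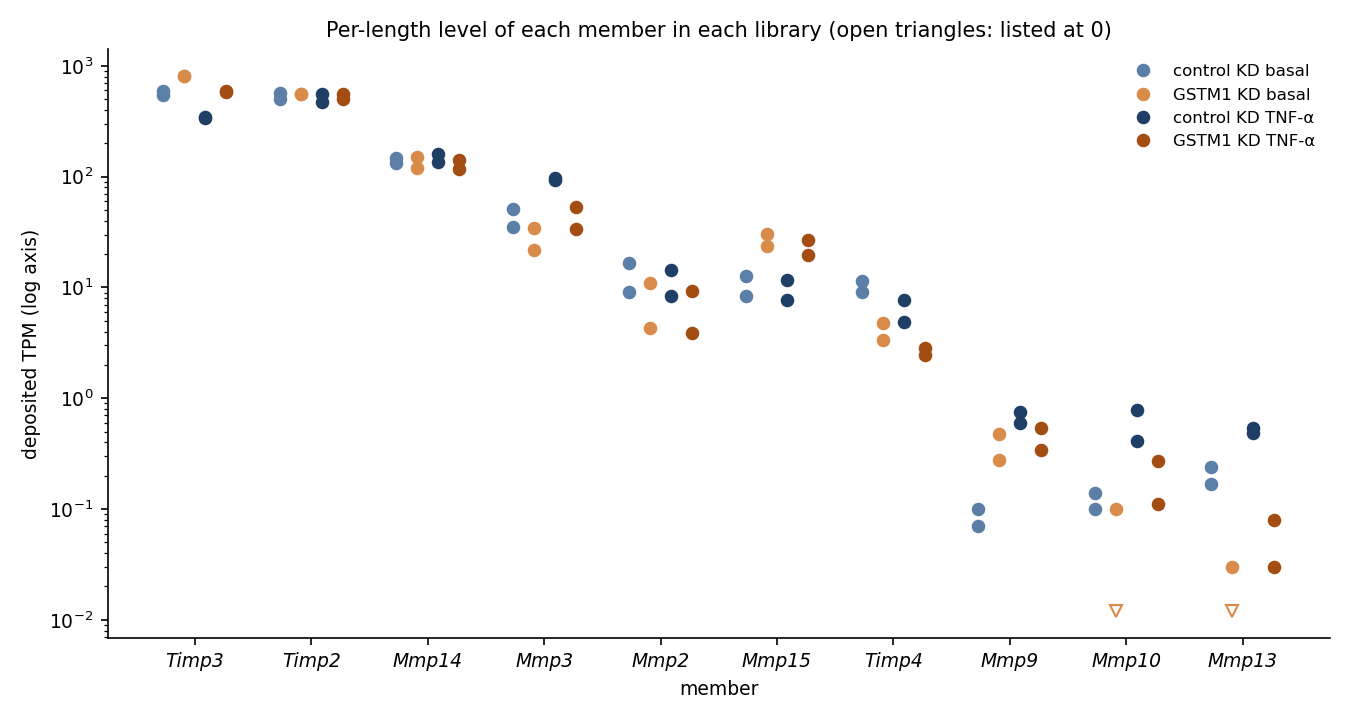
Deposited TPM (log axis) of each member in each of the 8 libraries, coloured by group, with open triangles for values listed at 0. Timp3, Timp2 and Mmp14 lie above 100 TPM in every library, and Mmp9, Mmp10 and Mmp13 lie below 1 TPM.

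Per length, the inhibitors were the abundant part of the system. Timp3, which binds matrix and also inhibits ADAM proteases, had a mean level of 570 TPM in unstimulated control KD and 808 TPM in unstimulated GSTM1 KD, and 342 and 586 TPM after TNF-α. Timp2, which blocks MMP2 and also takes part in its activation by MMP14, had 534, 556, 510 and 528 TPM in the same order. The order of this pair turned in one group. Timp3 and Timp2 overlapped in control KD at the basal level, Timp2 was the higher in both control KD libraries after TNF-α, and Timp3 was the higher in both GSTM1 KD libraries in either state. Together they made up at least 99.0% of the summed TPM of the 3 TIMP members in every library.

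Among the proteases, the membrane-bound Mmp14, an activator of proMMP2, had the highest level, at 129 to 147 TPM in the group means and 52.6% to 70.5% of the summed MMP TPM per library. Mmp3 (stromelysin-1, which cuts many matrix proteins and activates other proMMPs) followed at 43.1 TPM in unstimulated control KD and 28.3 TPM in unstimulated GSTM1 KD, and at 95.4 and 43.7 TPM after TNF-α. Mmp2, Mmp15 and Timp4 came next, all with group means below that of Mmp3, and Mmp2 and Mmp15 overlapped in both control KD groups but not in the GSTM1 KD groups, where Mmp15 was the higher. Mmp9, Mmp10 and Mmp13 were at or below 0.675 TPM in every group mean, and Mmp9 and Mmp10 overlapped in the control KD groups.

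The balance of the summed levels followed the same genes. The 7 MMPs summed to 217 and 198 TPM in unstimulated control KD and 214 and 183 TPM in unstimulated GSTM1 KD, and to 275 and 256 TPM against 219 and 188 TPM after TNF-α. The 3 TIMPs summed to 1051 and 1177 TPM against 1369 and 1366 TPM before stimulation, and to 818 and 898 TPM against 1094 and 1140 TPM after TNF-α. The ratio of TIMP to MMP sums was lowest in control KD after TNF-α, at 2.98 and 3.51, against 4.99 and 6.05 in GSTM1 KD. These sums leave out Timp1, which is described further on and was abundant. They also leave out other family MMPs, which the ratios below do not add. Among these were Mmp11 and Mmp19, with means of 25.6 and 14.5 TPM in unstimulated control KD. With Timp1 added, the ratio after TNF-α was 4.87 and 5.13 in control KD against 5.84 and 6.80 in GSTM1 KD, and before stimulation 6.71 and 7.26 against 7.02 and 8.02, where the groups overlapped. The ratio is of RNA levels, not of protein or activity.

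**Figure D2:**
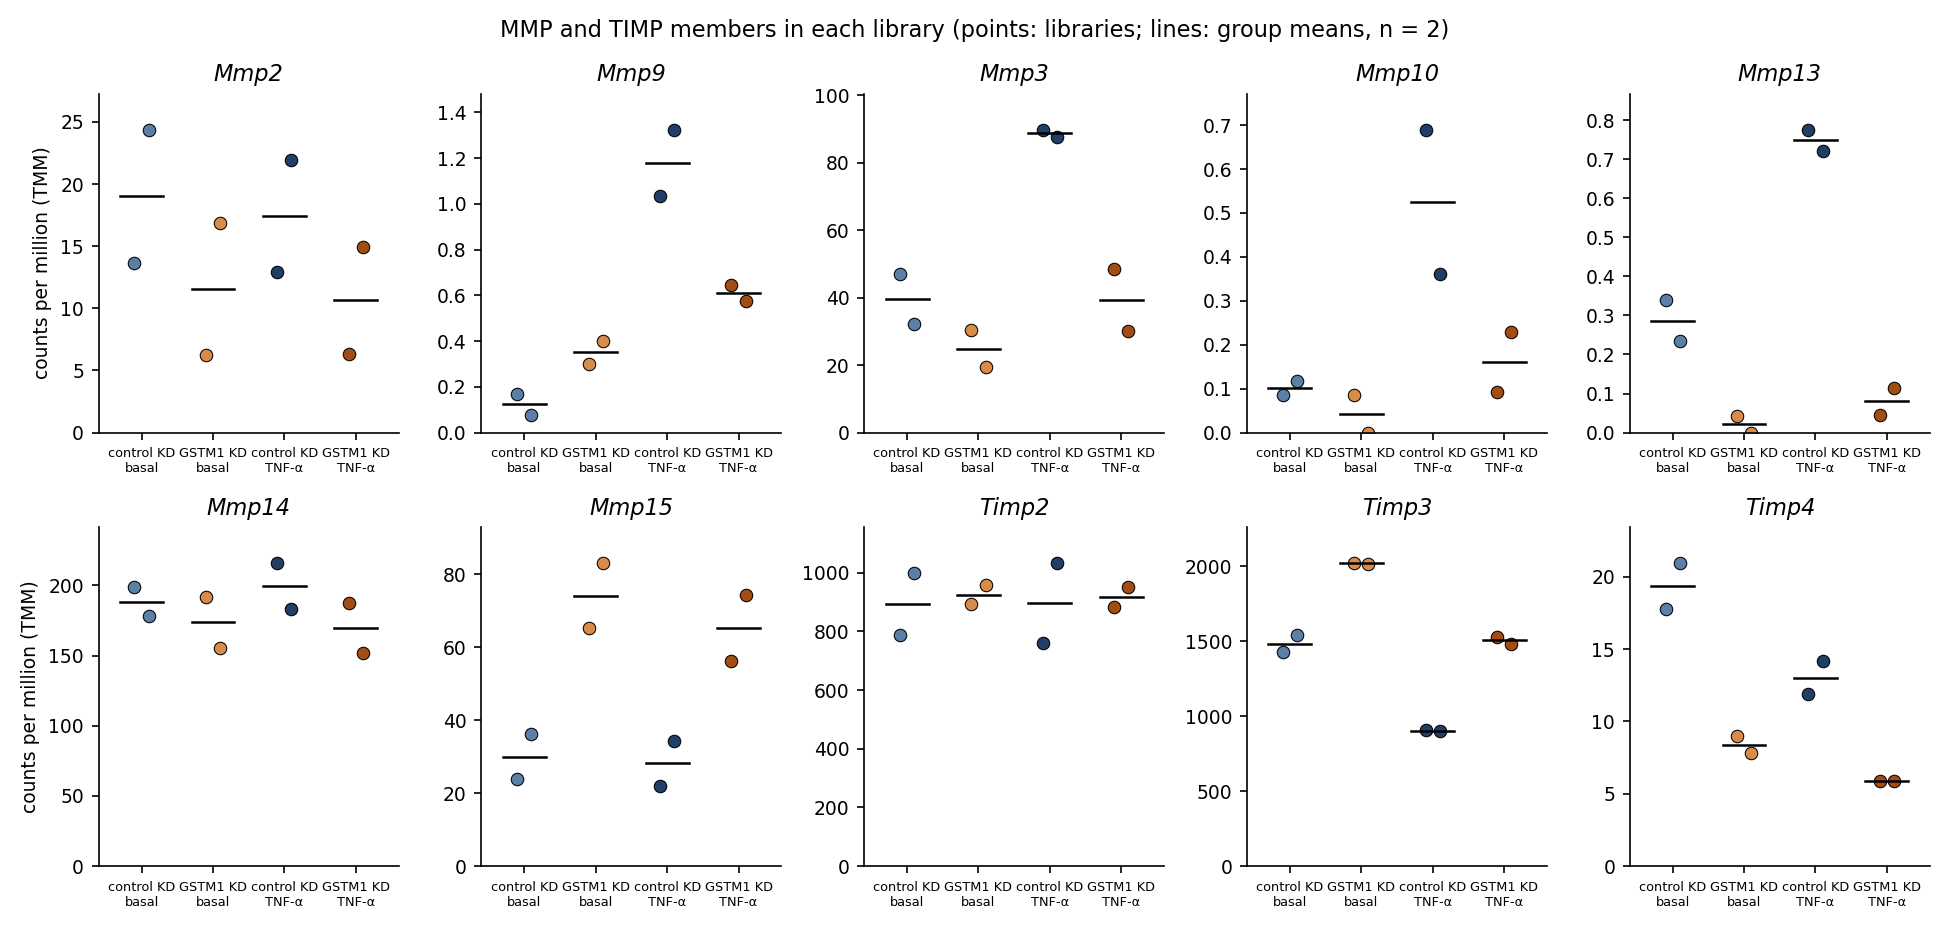
CPM (counts scaled by library size with TMM factors) of each member in each library, one panel per gene with its own axis from 0, points for libraries and lines for group means (n = 2). Mmp3 and Mmp13 stand highest in control KD after TNF-α, Mmp15 is higher in all 4 GSTM1 KD libraries, and Timp4 is lower in all 4.

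In the comparison of GSTM1 KD with control KD at the basal level, Mmp15 rose 2.47-fold and Timp4 fell 2.30-fold. These were 2 of the 7 members tested, where 10.2% of all 14899 genes passed (4.6% higher and 5.62% lower). After TNF-α, Mmp15 and Timp3 were higher, and Mmp3 and Timp4 were lower. Mmp13 was admitted to the test through control KD alone, where it was high, and its call is left out of the count. The other calls were 4 of 8 members, where 16.2% of 14593 genes passed (7.26% higher and 8.92% lower). Over the 7 members tested in both states the median log2 fold change was -0.12 before and -0.26 after stimulation, against 0.00 and -0.01 over all genes.

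Same-numbered libraries of different groups deviated together, so a fit with the replicate number as a block is given where it changes a call. With the block, 5 of 7 members passed before stimulation, where 31.7% of all genes passed, and 6 of 9 after it, Mmp13 included, where 29.5% passed. The libraries of the 2 groups did not overlap for 63.5% of all genes before and 66.6% after stimulation, so most genes were apart and groups that do not overlap single out no member.

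Mmp3 was lower in stimulated GSTM1 KD astrocytes. It had 47.0 and 32.1 CPM (counts scaled by library size) in unstimulated control KD and 30.3 and 19.3 CPM in unstimulated GSTM1 KD, and 89.7 and 87.7 CPM against 48.6 and 30.2 CPM after TNF-α. Both GSTM1 KD libraries lay below both control KD libraries in each state, narrowly at the basal level. The log2 fold change was -1.19 ± 0.224 after TNF-α (adjusted p = 0.0276), a level 2.28-fold lower. At the basal level it was -0.67 ± 0.276, which did not pass (adjusted p = 0.164), and -0.68 with the replicate block, which did (adjusted p = 0.00125).

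Mmp13 (collagenase-3, which cuts fibrillar collagen) was at or under 2 counts in every GSTM1 KD library. It had 12 and 6 counts in unstimulated control KD against 1 and 0 in unstimulated GSTM1 KD, and 18 and 12 against 1 and 2 after TNF-α. The pooled counts gave a ratio 12.8-fold lower at the basal level (exact 95% interval 2.02 to 532) and 9.80-fold lower after TNF-α (3.05 to 50.2), where intervals cover counting error only. After TNF-α the test of the 4 libraries gave -3.20 ± 0.599 on the log2 scale (adjusted p = 0.0274). It passed the filter on low counts through its control KD libraries alone, so its call is not counted. Before stimulation it was too low for the test of those 4 libraries, and it passed as lower in a fit of all 8. DESeq2 gave it no adjusted p, and a minimum of 10 counts in every library left it out.

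Mmp10 (stromelysin-2, close to MMP3 in sequence and substrates) had 3 counts in each unstimulated control KD library and 2 and 0 in unstimulated GSTM1 KD, which is at or under the floor of 3 counts. After TNF-α it had 16 and 6 counts against 2 and 4. The pooled ratio after TNF-α was 3.59-fold lower in GSTM1 KD (exact 95% interval 1.41 to 10.8). It was too low for the test across genes in either state. Mmp3 and Mmp10 are near paralogs, and the expected counts of both were whole in all 8 libraries.

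The gelatinases, which cut denatured collagen and basement membrane collagen, did not pass in either state. Mmp2 had 13.7 and 24.4 CPM in unstimulated control KD against 6.22 and 16.9 CPM in unstimulated GSTM1 KD, and 12.9 and 22.0 CPM against 6.33 and 14.9 CPM after TNF-α. The groups overlapped, and replicate 2 exceeded replicate 1 in each of them. The log2 fold changes were -0.72 (95% interval -1.97 to 0.53) and -0.74 (-1.86 to 0.37), both of which include 0. Within each replicate number Mmp2 was the lower in GSTM1 KD in both states, and it passed as lower before and after stimulation with the block (-0.82, adjusted p = 0.00462, and -0.81, adjusted p = 0.0170) and with no count filter (-0.75, adjusted p = 0.00375, and -0.75, adjusted p = 0.00302). Mmp9 had 24 and 22 counts in control KD against 14 and 10 in GSTM1 KD after TNF-α. Its log2 fold change there was -0.95 ± 0.383 (adjusted p = 0.139). At the basal level it had only 6 and 2 counts against 7 and 8 and was not tested.

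The 2 membrane-type members parted. Mmp15, a membrane-type MMP, had 23.9 and 36.2 CPM in unstimulated control KD and 65.3 and 83.1 CPM in unstimulated GSTM1 KD, and 22.1 and 34.4 CPM against 56.4 and 74.5 CPM after TNF-α. Every GSTM1 KD library exceeded every control KD library. The log2 fold changes were 1.31 ± 0.229 (adjusted p = 0.0303) and 1.19 ± 0.241 (adjusted p = 0.0322). Replicate 2 was the higher in each group, as it was for the summed astrocyte markers, whose part in this result was not tested. Mmp14 had 199 and 178 CPM against 192 and 156 CPM before stimulation, and 216 and 183 CPM against 188 and 152 CPM after TNF-α. Its groups overlapped, and the log2 fold changes were -0.12 (95% interval -0.47 to 0.24) and -0.26 (-0.64 to 0.12).

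The inhibitors also parted. Timp4, the least abundant TIMP member, had 17.8 and 20.9 CPM in unstimulated control KD against 8.97 and 7.81 CPM in unstimulated GSTM1 KD, and 11.9 and 14.1 CPM against 5.87 and 5.86 CPM after TNF-α. The groups did not overlap in either state. The log2 fold changes were -1.20 ± 0.177 (adjusted p = 0.0234) and -1.17 ± 0.190 (adjusted p = 0.0204). The overlapping gene Syn2, at 29.9 to 70.1 TPM, had a higher level than Timp4, at 2.47 to 11.5 TPM, and both had whole expected counts in all 8 libraries.

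Timp3 had 1428 and 1543 CPM in unstimulated control KD against 2021 and 2020 CPM in unstimulated GSTM1 KD, and 905 and 900 CPM against 1531 and 1483 CPM after TNF-α. The groups were apart in both states. The log2 fold change was 0.71 ± 0.116 after TNF-α (adjusted p = 0.0204), and 0.44 ± 0.130 at the basal level, which did not pass (adjusted p = 0.0848). There it did pass with the replicate block (adjusted p = 0.0133), in DESeq2 (0.0180), with no count filter (0.0178) and in a fit of all 8 libraries (0.0202). In that order, these settings called 4722 of 14899, 2494 of 13496, 3957 of 24733 and 2762 of 15332 genes. The main fit called 1524 of 14899. Timp3 did not pass there with DESeq2 size factors in edgeR, library size only, at least 10 counts in every library or effective-length offsets. The gene around it, Syn3, had only 1.59 to 4.14 TPM. Timp2 had 787 and 1000 CPM against 893 and 957 CPM before stimulation, and 761 and 1032 CPM against 882 and 950 CPM after TNF-α. Its log2 fold changes were 0.05 (95% interval -0.34 to 0.44) and 0.01 (-0.42 to 0.43), with overlapping groups.

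**Figure D3:**
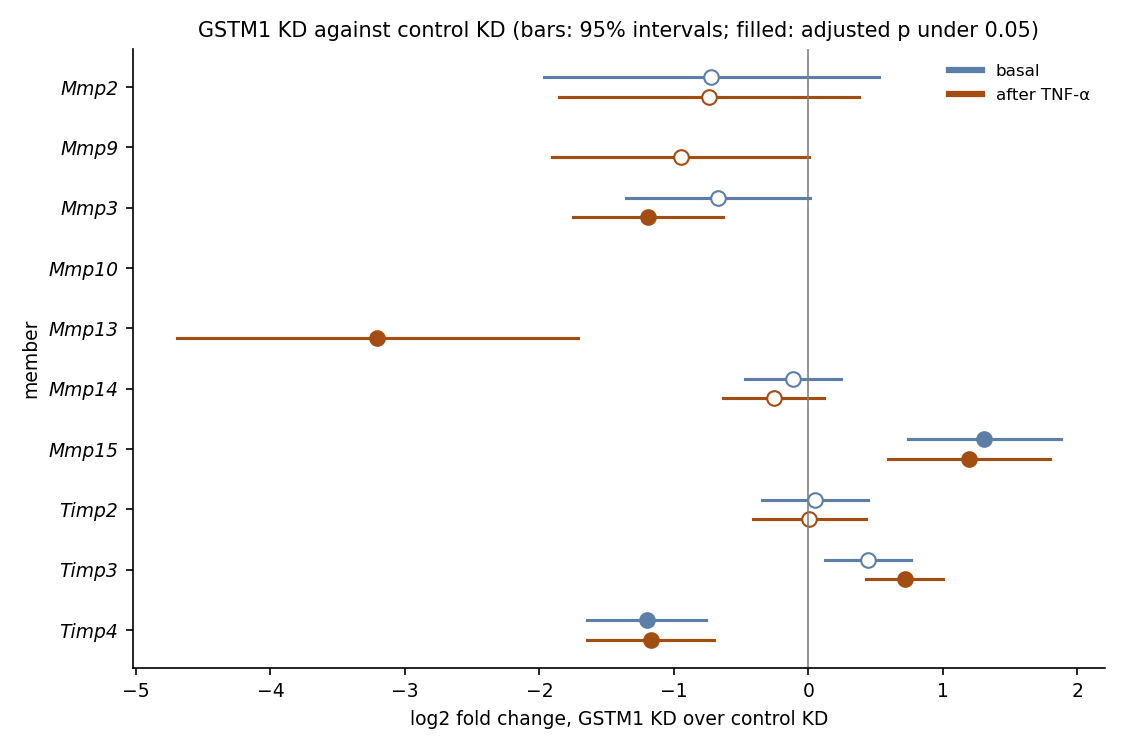
Log2 fold change of GSTM1 KD over control KD for each tested member at the basal level (blue) and after TNF-α (brown), with 95% intervals and filled points for adjusted p under 0.05. Mmp15 lies above 0 and Timp4 below 0 in both states, Mmp3 and Mmp13 pass below 0 and Timp3 above 0 after TNF-α, where Mmp13 is the member admitted through control KD alone, and Mmp10 was not tested.

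Leaving out a GSTM1 KD library left 1 library in that group, which was then assumed to vary like the control KD pair. Without a control KD library, that group was likewise assumed to vary like the GSTM1 KD pair. The control KD pairs differed more, by 55.4 and 37.0 times the sampling noise in the basal and stimulated state. The GSTM1 KD pairs differed by 13.8 and 15.8 times. The part of this difference in the values below was not tested. Without either one of the 2 GSTM1 KD libraries of a state, 0 members passed in that state, and 0 to 3 genes passed of all genes at the basal level and 0 to 94 after TNF-α. Before stimulation, the adjusted p was 0.0958 for Mmp15 and 0.110 for Timp4 without GSTM1 KD replicate 1, and 0.174 and 0.169 without replicate 2, with log2 fold changes of 1.47 and -1.31, and 1.11 and -1.12. Without GSTM1 KD replicate 1 the adjusted p after TNF-α was 0.0620 for Mmp3, 0.198 for Mmp13, 0.0797 for Mmp15, 0.145 for Timp3 and 0.114 for Timp4. Their log2 fold changes there were -1.57, -2.66, 1.39, 0.70 and -1.17, in the same directions. Without replicate 2 the adjusted p lay between 0.0951 (Mmp3) and 0.169 (Mmp13 and Mmp15), with log2 fold changes of -0.89 for Mmp3, -3.87 for Mmp13, 0.98 for Mmp15, 0.74 for Timp3 and -1.17 for Timp4. Mmp13 also lost its call without control KD replicate 1 after TNF-α (adjusted p = 0.0591).

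The response to TNF-α was then compared with the basal level within each knockdown. In control KD, Timp3 fell 1.65-fold. With at least 10 counts required in every library it was the 1 call among 7 members, where 359 of 13313 genes passed. Mmp9 (gelatinase B), admitted to the test only through the libraries where it was high, had an 8.73-fold higher level and is not counted. In the fit without that stricter filter, 2.63% of all 15332 genes passed (2.1% higher and 0.528% lower). With the replicate block 3 of 9 members passed, Mmp9 included, where 6.44% of genes did. By edgeR without the block, 5 of 9 members had an unadjusted p under 0.05, against 12.5% of all genes. These 5 include Mmp9 and Mmp13, both admitted only through libraries where they were high, which can raise the share of members. The libraries did not overlap for 34.5% of all genes in control KD and 44.5% in GSTM1 KD. In GSTM1 KD, 0 of 9 members passed by edgeR, where 2.65% of genes passed (2.35% higher and 0.294% lower). There, 2 of 9 members had an unadjusted p under 0.05 (Timp3 and Timp4), against 10.9% of all genes, and DESeq2 called 1 (Timp3). With the block 1 member passed (Timp3), where 5.27% of genes did.

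Mmp9 went from 6 and 2 counts to 24 and 22 in control KD, and from 7 and 8 to 14 and 10 in GSTM1 KD. In counts, all stimulated libraries of a knockdown exceeded its basal libraries. In TPM, which also scales for length, the GSTM1 KD groups overlapped (0.28 and 0.48 before against 0.54 and 0.34 after TNF-α). The log2 response of control KD was 3.13 ± 0.462 (adjusted p = 0.0168). In GSTM1 KD the response was 0.80 ± 0.450 (adjusted p = 0.670). Mmp9 passed the filter on low counts only through its stimulated libraries, the group where it was high, and its effective length varied from 1482 to 2951 bases between libraries. Its call was lost on the 4 control KD libraries alone (adjusted p = 0.138) and without control KD basal replicate 1 (0.0517) or 2 (0.0963), control KD stimulated replicate 2 (0.0881), or GSTM1 KD basal replicate 1 (0.0504) or 2 (0.0502).

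Timp3 had a log2 response of -0.72 ± 0.0931 in control KD (adjusted p = 0.0107). It was -0.42 ± 0.0927 with the knockdown, short of the threshold (adjusted p = 0.0728), and passed there with the replicate block (adjusted p = 0.0205). Timp4 gave -0.57 ± 0.157 (adjusted p = 0.144) and -0.52 ± 0.167 (adjusted p = 0.249). The Timp3 call in control KD was lost on its own 4 libraries alone (adjusted p = 0.152), without control KD basal replicate 2 (0.0545) and without control KD stimulated replicate 2 (0.0627). For both inhibitors each stimulated library was below each basal library of its knockdown.

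Among the cluster members, Mmp3 had a log2 response of 1.16 ± 0.294 in control KD (adjusted p = 0.110), with both stimulated libraries the higher, and 0.67 ± 0.299 in GSTM1 KD (adjusted p = 0.498), where the groups overlapped but the stimulated library was the higher within each replicate number. The Mmp3 response in control KD passed with the replicate block (adjusted p = 0.00651), in DESeq2 (0.00226) and with no count filter. Mmp13 gave 1.35 ± 0.492 in control KD (adjusted p = 0.295). It entered that fit only through the stimulated control KD libraries, where it was high. Mmp10 went from 6 to 22 pooled counts in control KD, a ratio of 5.61 (exact 95% interval 2.21 to 16.9). In GSTM1 KD its pooled counts were 2 and 6. Mmp2, Mmp14, Mmp15 and Timp2 had log2 fold changes between -0.18 and 0.08 in both knockdowns, with overlapping libraries.

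**Figure D4:**
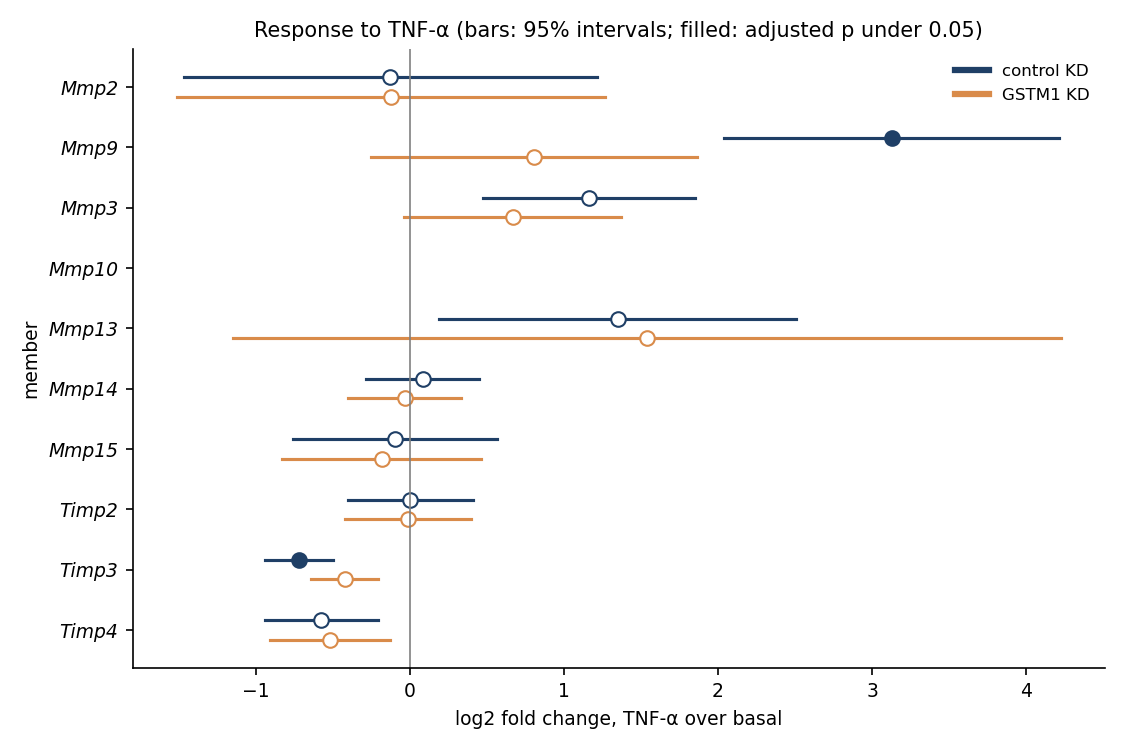
Log2 fold change of TNF-α over basal for each tested member in control KD (dark blue) and GSTM1 KD (orange), with 95% intervals and filled points for adjusted p under 0.05. Mmp9, admitted through its stimulated libraries alone, passes above 0 and Timp3 below 0 in control KD, and no member passes in GSTM1 KD.

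The difference of the responses, GSTM1 KD minus control KD, was tested directly. It passed for 0 of 9 members and for 0% of 15332 genes by edgeR, with 296 genes at an unadjusted p under 0.05 and 27 genes called by DESeq2, none of them a member. Mmp9, with the low counts given above, was the 1 member with an unadjusted p under 0.05. Its difference was -2.32 ± 0.658 on the log2 scale (adjusted p = 1.00). Timp3 gave 0.30 (95% interval -0.01 to 0.60) and Mmp3 -0.50 (-1.48 to 0.48). The responses are thus not shown to differ between the knockdowns for any member, and the comparisons of knockdown and of TNF-α share libraries.

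The rest of the family held 17 other MMP and TIMP genes, of which 12 were over 3 counts in a library. In the unstimulated and stimulated states 9 and 8 of them were tested. Timp1 passed as lower in GSTM1 KD in both states, where 5.62% and 8.92% of all genes did, Mmp12 is described by its counts, and the rest did not pass. Timp1, a secreted inhibitor known to be induced in reactive astrocytes, had 149 and 92.1 CPM in unstimulated control KD against 45.9 and 35.5 CPM in unstimulated GSTM1 KD, and 189 and 151 CPM against 65.96 and 50.34 CPM after TNF-α. Its log2 fold change was -1.57 in both states (adjusted p = 0.0277 and 0.0121). Adding Timp1 brought the summed TIMP level to 1457 and 1434 TPM in unstimulated control KD and 1500 and 1470 TPM in unstimulated GSTM1 KD. After TNF-α it came to 1339 and 1312 TPM against 1279 and 1281 TPM, so with Timp1 included the stimulated GSTM1 KD libraries held the lower TIMP sum.

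Mmp12 (macrophage elastase) and Mmp8 (neutrophil collagenase), which lie in the same cluster as Mmp3, Mmp10 and Mmp13, were also low. Mmp12 had 85 and 16 counts in unstimulated control KD against 0 and 1 in unstimulated GSTM1 KD, and 58 and 14 against 0 and 1 after TNF-α. It passed the filter on low counts through its control KD libraries alone, the groups where it was high, and its call is therefore not counted. Mmp8 had 23 and 4 counts in unstimulated and 13 and 4 in stimulated control KD, and 0 in all 4 GSTM1 KD libraries. Control KD replicate 1 held most counts of both genes. The microglia marker Trem2 was also highest in that replicate, at 2.52 TPM against 0.93 TPM in replicate 2 at the basal level and 0.25 and 0.00 TPM in GSTM1 KD, and its part in these values was not tested. The remaining tested family genes did not pass in any comparison, and Mmp1a, Mmp1b, Mmp7 and Mmp27 were at 0 in all libraries.

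The list of MMP activators and other protease inhibitors held 21 genes, of which 18 were tested in each state. At the basal level 2 were higher and 2 lower in GSTM1 KD, and after TNF-α 3 were higher and 3 lower, where 10.2% and 16.2% of all genes passed. Plau, the urokinase that makes plasmin, an activator of proMMPs, had 11.2 and 11.8 CPM in unstimulated control KD against 4.94 and 6.36 CPM in unstimulated GSTM1 KD, and 60.5 and 51.2 CPM against 16.5 and 17.9 CPM after TNF-α. The log2 fold changes of the knockdown were -1.03 (adjusted p = 0.0402) and -1.73 (adjusted p = 0.00971). The urokinase receptor Plaur was lower as well after TNF-α (-1.42). Furin and Pcsk6, proprotein convertases, were higher in both states (0.57 and 0.58, and 0.69 and 0.70), and the endocytic receptor Lrp1 after TNF-α (0.47). Plau rose with TNF-α in both knockdowns, by 2.28 in control KD and 1.61 in GSTM1 KD on the log2 scale, and Cldn1 by 2.30 in GSTM1 KD.

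The list of matrix substrates held 25 genes, 24 of them tested. Of these, 0 were higher and 3 lower in unstimulated GSTM1 KD, and 1 was higher and 3 lower after TNF-α, close to the 10.2% and 16.2% of all genes that passed. The lower genes were Col1a2, a chain of type I collagen (-1.13 and -0.99 on the log2 scale), Lama4, a laminin chain of vessels (-1.27 and -1.11), and the proteoglycan Vcan (-0.70 and -0.79). The laminin chain gene Lamb2 was higher after TNF-α (0.81). The other 20 or 21 genes did not pass. Col1a2 is also on the fibroblast marker list described above.

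The genes whose pattern lay closest to each member were found from the Pearson correlation of log2 CPM over the 8 libraries, which share 4 groups and 2 replicate numbers, among 15332 genes. Mmp15 lay closest to Ndst1 and Nell2 (r = 0.998 for each), Timp4 to Rasl11a (0.997) and Apln (0.994), and Timp3 to Trpm6 (0.995) and Tcf7l2 (0.992). Mmp3 lay closest to B4galt1 (0.986) and Rgs19 (0.984), Mmp13 to Cln8 (0.990) and Colgalt1 (0.988), and Mmp9 to Nfil3 (0.989) and Mpzl1 (0.963). Mmp2 lay closest to Man2a1 (0.985) and Col1a1 (0.976), Timp2 to Ndrg2 (0.987) and Slc1a3 (0.986), and Mmp14 to Mcph1 (0.967) and the transcript RP23-207L14.2 (0.964). Between members, r was 0.86 for Mmp3 and Mmp13 and -0.93 for Mmp3 and Timp3. With 8 points in 4 groups, these values describe the libraries only.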

How the data were processed

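Messenger RNA was measured in 8 libraries, 2 per group. Strand-specific libraries were mapped by the authors to GRCm38 with STAR (version 2.5.4b) and quantified with RSEM (version 1.3.0), as their processing notes and methods state. The deposited expected counts are RSEM's estimated fragments per gene, not normalized, and were rounded to whole numbers. The deposited TPM values were used for levels between genes and for sums over genes, set side by side between groups with no test. The deposited effective lengths, in bases, are another column of the same files and entered 1 alternative.

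edgeR (version 4.0.16, R version 4.3.3) gave TMM factors, the filterByExpr filter by group and the quasi-likelihood test, with Benjamini-Hochberg adjustment over all genes tested and a threshold of 0.05. Standard errors and 95% intervals come from the fitted model. Each knockdown comparison used the 4 libraries of its state, and the TNF-α responses and their difference used all 8. Same-numbered libraries deviated together in all 6 pairs of groups (correlation of deviations 0.165 to 0.575), a hint from the data, since the sources do not state what the numbers mark. No exact test of 2 against 2 libraries can reach 0.05. Totals per library ran from 17349676 to 34434633, and the coefficient of variation between replicates was 14.5% to 15.8%. A group whose libraries each held at most 3 counts of a gene was taken as at the floor.

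Alternatives were DESeq2 (version 1.42.0), other scalings, filters and sets of libraries, effective-length offsets, a replicate block and leaving out each library. The named genes were the members, the members of 5 lists that passed in a comparison (up to 4 per list and direction), all other family genes, the 2 genes closest to each tested member, and Gstm1. Members and lists were chosen with earlier results of these data known. Trem2, Syn2, Syn3 and the marker genes were named after their values were seen. Positions come from GENCODE M21 and promoters from RefSeq. Some genes of the lists are not reported here by name.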

Additional observations from a re-analysis of the deposited data

How the results depend on the processing

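With 2 libraries per group, precision was set by the spread between replicates, and by depth for Mmp9, Mmp10 and Mmp13, which had at most 24 counts in a library. Against 2 members and 1524 genes called at the basal level, DESeq2 called 3 members (Timp3 added) and 2494 genes, no count filter 5 members (Mmp2, Mmp3 and Timp3 added) and 3957 genes, a fit of all 8 libraries 4 (Mmp13 and Timp3 added) and 2762, and leaving out a library 0 to 4 and 0 to 5233. After TNF-α (5 with Mmp13, and 2360), DESeq2 and the filter of at least 10 counts in every library called 4 members each, without Mmp13, no filter called 6 members (Mmp2 added) and 4539 genes, and leaving out a library 0 to 5 members and 0 to 5028 genes. Scaling by library size alone turned the split of all genes to 870 higher and 784 lower for the unstimulated comparison and 1350 and 1163 for the stimulated one. For the response in control KD (2 with Mmp9, and 403), DESeq2 called 3 members (Mmp3 added) and 739 genes, no filter the same 3 members and 1236 genes, a filter of at least 10 counts in every library 1 member, the 4 libraries of that knockdown alone 0 members and 72 genes, and leaving out a library 0 to 2 members and 180 to 313 genes. For the response in GSTM1 KD (0 and 406), DESeq2 called 1 member and 629 genes, library size alone 1 member, no filter 2 members (Mmp3 and Timp3) and 1039 genes, its own 4 libraries 1 and 691, and leaving out a library 74 to 444 genes. For the difference (0 genes), DESeq2 called 27, no filter 134, and leaving out a library 0 to 2. The cause of these shifts was not tested.

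The replicate number as a block gave 5 members (Mmp2, Mmp3 and Timp3 added) and 4722 genes before stimulation, 6 (Mmp2 added) and 4310 after it, 3 (Mmp3 added) and 988 for the response in control KD and 1 (Timp3) and 808 for that in GSTM1 KD. It changed no other call of a member.

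Directions turned only for values that had not passed, and leaving out a library moved some of these far from 0. For Timp2, effective-length offsets gave -0.0082 for the knockdown after TNF-α, -0.042 for the response in control KD and 0.0088 for the difference, and that response was -0.029 with library size alone and -0.0039 with no filter. For Mmp2, the difference was -0.014 with DESeq2, -0.012 with its size factors, -0.0050 with library size alone, -0.023 with the stricter filter and -0.038 with length offsets. Leaving out a library gave, for the knockdown, Timp2 -0.12 to 0.22 and Mmp14 -0.27 to 0.018 at the basal level and Timp2 -0.19 to 0.24 after TNF-α. For the response in control KD it gave Timp2 -0.22 to 0.20, Mmp2 -0.54 to 0.35, Mmp15 -0.43 to 0.24 and Mmp14 -0.045 to 0.21. For the response in GSTM1 KD it gave Mmp14 -0.20 to 0.13, Timp2 -0.065 to 0.038, Mmp2 -0.86 to 0.76 and Mmp15 -0.39 to 0.0048. For the difference it gave Mmp2 -0.74 to 0.88, Timp2 -0.22 to 0.20, Mmp15 -0.43 to 0.24, Mmp13 -0.58 to 2.56, Timp4 -0.076 to 0.17 and Mmp14 -0.28 to 0.043.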

Other observations

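ADAM and ADAMTS proteases, some but not all of which TIMPs such as Timp3 also inhibit, were a list of 12 genes, 11 of them tested. At the basal level 0 were higher and 3 lower in GSTM1 KD, and after TNF-α 1 was higher and 5 lower, where 10.2% and 16.2% of all genes passed. The aggrecanases Adamts1 (-1.46) and Adamts4 (-1.48) and the sheddase Adam19 (-1.39) had the largest log2 fold changes after TNF-α, followed by Adamts9 (-0.80), while Adam10, an alpha-secretase, was higher (0.55). In control KD, where 2.1% of all genes passed as higher, TNF-α raised Adamts4 by 1.49, Adamts9 by 1.08 and Adamts5 by 0.71 on the log2 scale. The values in GSTM1 KD, 0.54, 0.30 and 0.54, did not pass, and the differences of the responses did not pass either.

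Of 18 genes for AP-1, NF-κB, ETS and RUNX factors, all tested, 1 was higher and 4 lower in unstimulated GSTM1 KD, and 2 were higher and 3 lower after TNF-α, where 10.2% and 16.2% of all genes passed. Rela, an NF-κB subunit (-0.61 and -0.76), Ets1 (-0.79 and -0.85) and Runx2 (-0.74 and -0.70) were lower in both states, Junb was lower at the basal level (-0.74), and Ets2 was higher in both (1.03 and 0.86). TNF-α raised 6 in control KD and 7 in GSTM1 KD, where 2.1% and 2.35% of all genes passed as higher, among them Relb (2.35 and 2.75), Nfkb2 (2.09 and 2.07) and Junb (1.94 and 2.37).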
